A study of Mus musculus with 12 samples.

Results

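The endoplasmic reticulum (ER) folds and ships proteins that a cell secretes or places in its membranes, and it answers an overload of unfolded protein with the unfolded protein response. Sensors in the ER membrane start that response. IRE1 splices the *Xbp1* transcript so that it encodes an active transcription factor, ATF6 is cut to release another, and PERK phosphorylates the translation factor eIF2 alpha, which lowers translation in general and raises that of the factor ATF4. ATF6 and spliced XBP1 are known to raise the ER chaperones and the protein disulfide isomerases, whereas ATF4 raises genes of amino acid synthesis and transport and can also be switched on by other kinases, without ER stress. A set of 10 genes of the chaperone side of the response was followed here in mouse embryonic stem cells (mESCs). They are the transcription factor gene *Xbp1*, the chaperone genes *Hspa5*, *Hsp90b1* and *Calr*, the co-chaperone genes *Dnajb9* and *Sdf2l1*, the disulfide isomerase genes *Pdia4* and *Pdia6*, *Creld2*, which encodes an ER resident protein induced by ER stress, and *Herpud1*, which encodes a membrane protein of ER-associated degradation. The genes were matched by symbol among 54146 genes in the files, and all 10 were found with 1 identifier each and passed the minimum mean normalised count of 100.

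The cells were C57BL/6 mESCs of the genotype Prdm10F/F; Rosa26-CreERT2, grown on gelatin in serum with LIF, and all 4 groups shared this genotype. Both alleles of *Prdm10*, a zinc finger transcription factor gene, have a floxed exon 5, and a Cre recombinase that 4-hydroxytamoxifen (4-OHT, here OHT) activates is expressed from the ubiquitous *Rosa26* locus. Cells were exposed for 24 h to 50 nM OHT or to the same volume of its vehicle ethanol (EtOH) and harvested at Day 2 or Day 4, with 3 libraries for each of the 4 groups. The study states that, unless a legend says otherwise, its experiments had 3 or more independent biological repeats. It does not say this of these libraries by name. The labels do not say whether the 3 libraries came from separate cultures, so that p-values measure the spread between these libraries, which may be technical.

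The 12 libraries held 35017667 to 41409992 expected counts, and no pair of replicates was a duplicate, with a chi-square per gene of 3.41 to 11.2. The gene-level count of *Prdm10* was higher in the libraries labelled OHT, by a log2 fold change of 1.44 at Day 2 and 1.21 at Day 4, which is not the direction of a loss of the transcript. A count over the whole gene does not show whether exon 5 was removed. The study assayed the deletion in genomic DNA, by qRT-PCR of that exon and by western blot of PRDM10, and reports that recombination was verified. It also reports that PRDM10 ChIP-seq peaks were lost or much weaker after OHT. None of these assays was analysed here. Directions are therefore given for the libraries labelled OHT. All 11 markers of mESCs were expressed in every library, *Pou5f1* at 353.8 to 474.8 TPM (a level scaled to gene length and to the library). Of 7 fibroblast markers, *Lum*, *Dcn*, *Postn* and *Col3a1* were at 0 in 10, 8, 4 and 2 libraries, while *Thy1*, *Col1a1* and *Col1a2* were above 0 in every library. The summed level of the 7, most of it *Thy1*, was 0.88 to 1.37 TPM at Day 4 in OHT and 2.21 to 3.22 TPM in the other groups. The summed level of 7 neural and mesoderm markers, most of it *Tubb3*, was 67.49 to 72.11 TPM in EtOH and 40.5 to 42.75 TPM in OHT at Day 4. Summed levels were 29.28 to 36.85 TPM for 11 primitive endoderm markers and 9.63 to 14.2 TPM for 6 trophectoderm markers over all libraries. The part of these markers in the results below was not tested. In bulk RNA, fewer cells of a type and less RNA per cell cannot be told apart.

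The promoters of the genes were read first, because the known elements of the response differ between its arms. The ER stress response element (ERSE), bound by ATF6 with NF-Y, was searched as CCAAT and CCACG separated by any 9 bases. ERSE-II was searched as ATTGG and CCACG separated by 1 base. The C/EBP-ATF element (CARE), bound by ATF4 with a C/EBP partner, was searched as TGATG and AA separated by 1 base. The XBP1 element (UPRE) was searched as TGACGTGG. Each search covered both strands of the RefSeq promoter window of GRCm38.p6, which runs from 250 bases before the annotated start of the gene to 50 bases after it. The searches use different letters, but a CCACG could be shared by ERSE and ERSE-II.

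ERSE was found in 5 of the 10 windows and in 39 of all 32851 windows (0.119%). The 5 were those of *Hspa5*, *Hsp90b1*, *Calr*, *Pdia6* and *Creld2*, and that of *Hsp90b1* held 2 matches. The *Herpud1* window was the only one of the 10 with ERSE-II, which 0.0365% of all windows held. It was also the only one of the 10 with CARE, which 3.97% of all windows and 9 of 26 windows (34.6%) of the ATF4 arm list held. UPRE was found in none of the 10, against 0.676% of all windows. No match was found in the windows of *Xbp1*, *Dnajb9*, *Sdf2l1* and *Pdia4*, which says only that these letters are not in them. A match is a description of the sequence, and binding was not measured in these files.

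The windows of *Hspa5*, *Hsp90b1* and *Herpud1* are shown whole, because the first 2 genes moved together and the third moved most, and the sites of *Calr*, *Pdia6* and *Creld2* with 10 bases on either side. All are written 5′ to 3′ in the direction of the gene, with the matches in capitals.
*Hspa5*, plus strand, chr2:34771840-34772139: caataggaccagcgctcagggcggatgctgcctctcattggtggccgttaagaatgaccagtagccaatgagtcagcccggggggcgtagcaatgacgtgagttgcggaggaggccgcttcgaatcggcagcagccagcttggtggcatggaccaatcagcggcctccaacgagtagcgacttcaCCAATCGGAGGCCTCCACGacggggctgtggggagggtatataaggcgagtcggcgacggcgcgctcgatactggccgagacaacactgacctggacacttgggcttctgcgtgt
*Hsp90b1*, minus strand, chr10:86705395-86705694: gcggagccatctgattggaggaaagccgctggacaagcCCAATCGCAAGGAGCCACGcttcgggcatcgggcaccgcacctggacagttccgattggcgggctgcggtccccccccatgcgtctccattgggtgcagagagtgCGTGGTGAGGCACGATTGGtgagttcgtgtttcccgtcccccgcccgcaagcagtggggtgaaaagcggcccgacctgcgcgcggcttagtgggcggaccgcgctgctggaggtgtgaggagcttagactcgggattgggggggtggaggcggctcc
*Herpud1*, plus strand, chr8:94386179-94386478, CARE before ERSE-II: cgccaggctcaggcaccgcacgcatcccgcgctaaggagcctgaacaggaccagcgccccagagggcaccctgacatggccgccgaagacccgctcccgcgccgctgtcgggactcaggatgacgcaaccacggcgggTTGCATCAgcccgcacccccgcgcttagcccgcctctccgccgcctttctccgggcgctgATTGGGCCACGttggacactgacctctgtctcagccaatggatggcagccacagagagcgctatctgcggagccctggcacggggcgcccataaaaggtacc
*Calr*, minus strand, match at chr8:84847075-84847093: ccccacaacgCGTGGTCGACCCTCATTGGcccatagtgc
*Pdia6*, plus strand, match at chr12:17266491-17266509: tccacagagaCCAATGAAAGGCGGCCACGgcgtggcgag
*Creld2*, plus strand, match at chr15:88819520-88819538: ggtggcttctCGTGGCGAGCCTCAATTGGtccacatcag

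Counting the first transcribed base of RefSeq as 0, the *Hspa5* match ran from -65 to -47, and that of *Pdia6* from -98 to -80. The *Hsp90b1* matches ran from -212 to -194 and from -107 to -89, those of *Calr* and *Creld2* from -162 to -144 and from -126 to -108. In *Herpud1*, CARE ran from -112 to -105 and ERSE-II from -52 to -42. The plot of motif positions shows that all 8 matches lay upstream of the RefSeq start. GENCODE starts can differ, and the *Hspa5* match (chr2:34772025-34772043) lies within the GENCODE span of that gene, which begins at 34771970. None of the 10 genes was on the study's list of PRDM10-bound genes, which came from ChIP-seq and not from these libraries. The share of all genes on that list was not worked out, so that this does not set the 10 genes apart.

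**Figure D1:**
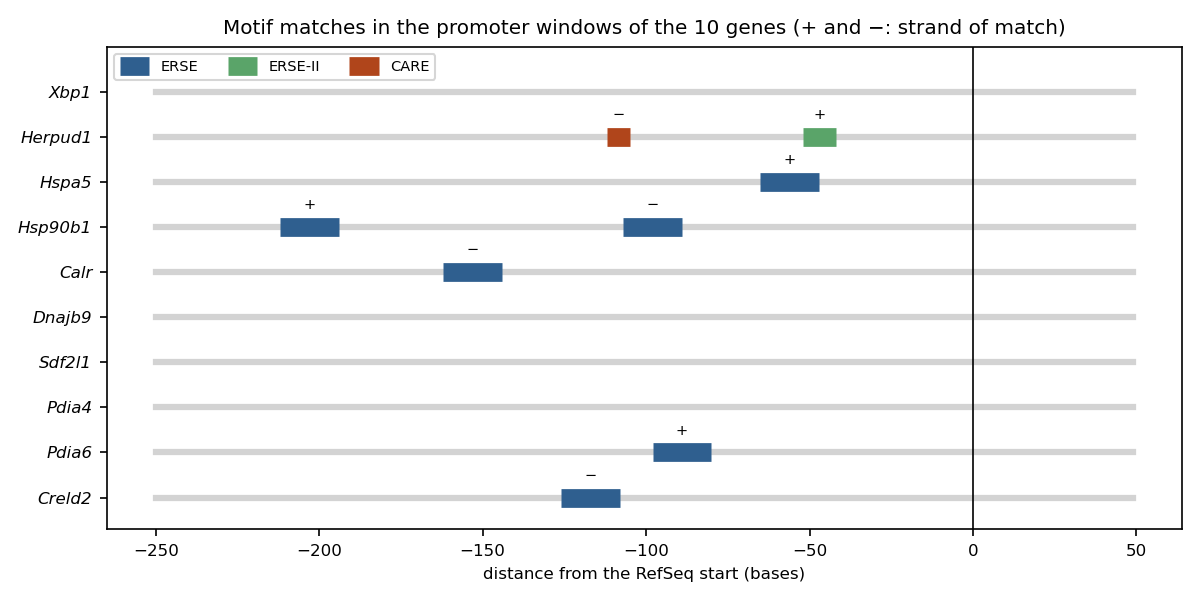
Positions of ERSE, ERSE-II and CARE matches in the promoter windows of the 10 genes, with the distance from the RefSeq start in bases on the horizontal axis and the strand of each match above it. ERSE lies in the windows of 5 genes, and *Herpud1* alone holds ERSE-II and CARE.

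To see whether the chaperone side of the response moved after OHT, the OHT libraries of each day were set against the EtOH libraries of that day. A gene was called where the DESeq2 Wald test gave an adjusted p below 0.05 and its mean normalised count exceeded 100. At Day 2, 6 of the 10 genes were lower and 0 higher, against 10.8% of 11642 genes called lower and 9.23% called higher. At Day 4, 5 of the 10 were lower and 0 higher, against 21.7% of 11552 genes lower and 23.6% higher. On both days 0 of the 10 were higher at an unadjusted DESeq2 p below 0.05, and 0 by edgeR. *Xbp1*, *Herpud1*, *Hspa5*, *Hsp90b1* and *Pdia6* were lower on both days, and *Sdf2l1* was called at Day 2. The changes were small except for *Herpud1*, which fell by 59% at Day 4 and was the only one of the 10 to change over 2-fold. Among all 11552 genes tested at Day 4, 172 were called over 2-fold. The median log2 fold change of the 10 genes was -0.13 on both days (-0.126 and -0.131), against -0.0284 and 0.0061 over all genes tested.

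The Day 2 count depended on the libraries and the scaling. It was 2 without Day2_EtOH replicate 1, 3 without Day2_OHT replicate 2 and 2 with the replicate number as a block. With total counts as scaling it was 2, and that scaling also moved the share of higher genes among all called genes from 46.1% to 68.5% at Day 2. *Xbp1* was called in all 12 alternatives run at Day 2. The Day 4 calls of the 5 genes held in all 12 alternatives run, although the median of the 10 genes was -0.092 without Day4_EtOH replicate 1.

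**Figure D2:**
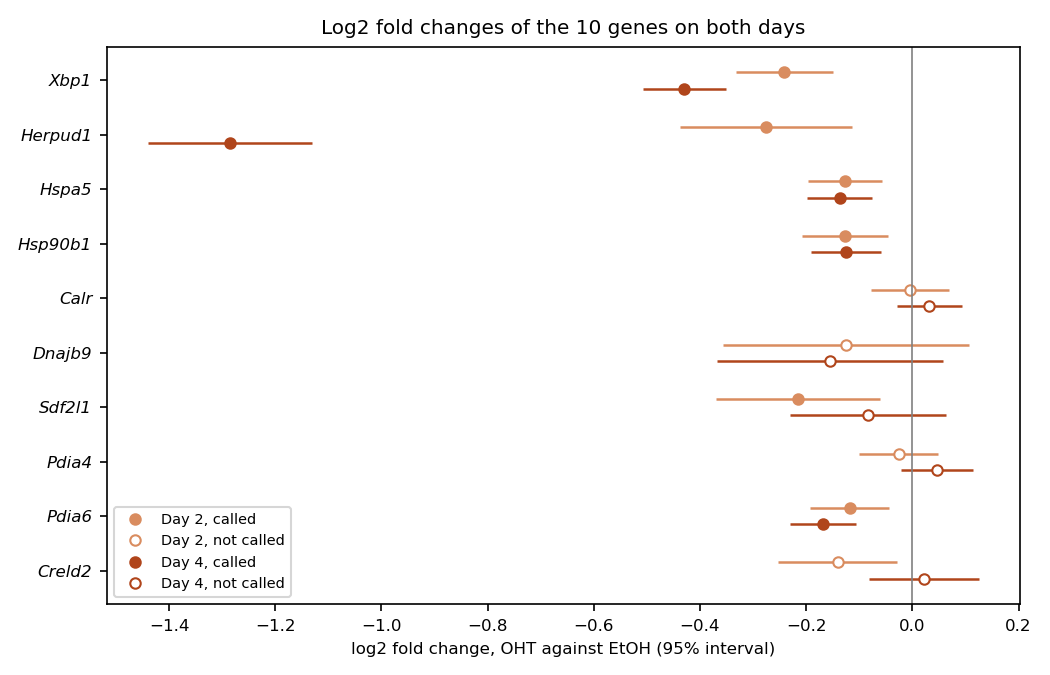
Log2 fold changes of the 10 genes, libraries labelled OHT against those labelled EtOH, on the horizontal axis with 95% intervals, for Day 2 (light) and Day 4 (dark); filled points were called. Every called point lies left of 0, and *Herpud1* at Day 4 lies furthest, at -1.29.

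*Xbp1* and *Herpud1* carried the clearest changes. *Xbp1* (chromosome 11, 5520659 to 5525893, plus strand, GRCm38) had normalised counts (expected counts divided by a size factor per library) of 4642, 4534 and 4373 at Day 2 in EtOH and of 3872, 3702 and 3887 in OHT. At Day 4 they were 4285, 4223 and 4189 in EtOH and 3200, 3173 and 3069 in OHT. The groups did not overlap on either day, and the Day 4 OHT libraries were the lowest of the 12. The log2 fold change was -0.24 at Day 2 (SE 0.05, DESeq2 adjusted p = 8.09e-06) and -0.43 at Day 4 (SE 0.04, DESeq2 adjusted p = 6.14e-25). The difference between the days, given by the treatment by day interaction, was -0.19 (SE 0.05, DESeq2 adjusted p = 0.00304). A gene-level count sums the spliced and the unspliced form, so that IRE1 activity was not measured.

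*Herpud1* (chromosome 8, 94386438 to 94395377, plus strand) had normalised counts of 796.5, 751.3 and 755.5 at Day 2 in EtOH and of 669.4, 622.3 and 610 in OHT. At Day 4 they were 1039, 1005 and 1011 in EtOH and 420.5, 424 and 411 in OHT. The groups were thus apart on both days, and by far more at Day 4, where the EtOH libraries were the highest of the 12 and the OHT libraries the lowest. The log2 fold change was -0.28 at Day 2 (SE 0.08, DESeq2 adjusted p = 0.00838) and -1.29 at Day 4 (SE 0.08, DESeq2 adjusted p = 5.18e-58). The interaction was -1.01 (SE 0.10, DESeq2 adjusted p = 9.43e-23). The Day 2 call held in 9 of 12 alternatives, and was lost, among others, without Day2_EtOH replicate 1 (log2 fold change -0.25, DESeq2 adjusted p = 0.0848) and without Day2_OHT replicate 2 (-0.26, DESeq2 adjusted p = 0.0554). An antisense gene overlaps *Herpud1*, and it had 0 counts in every library.

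**Figure D3:**
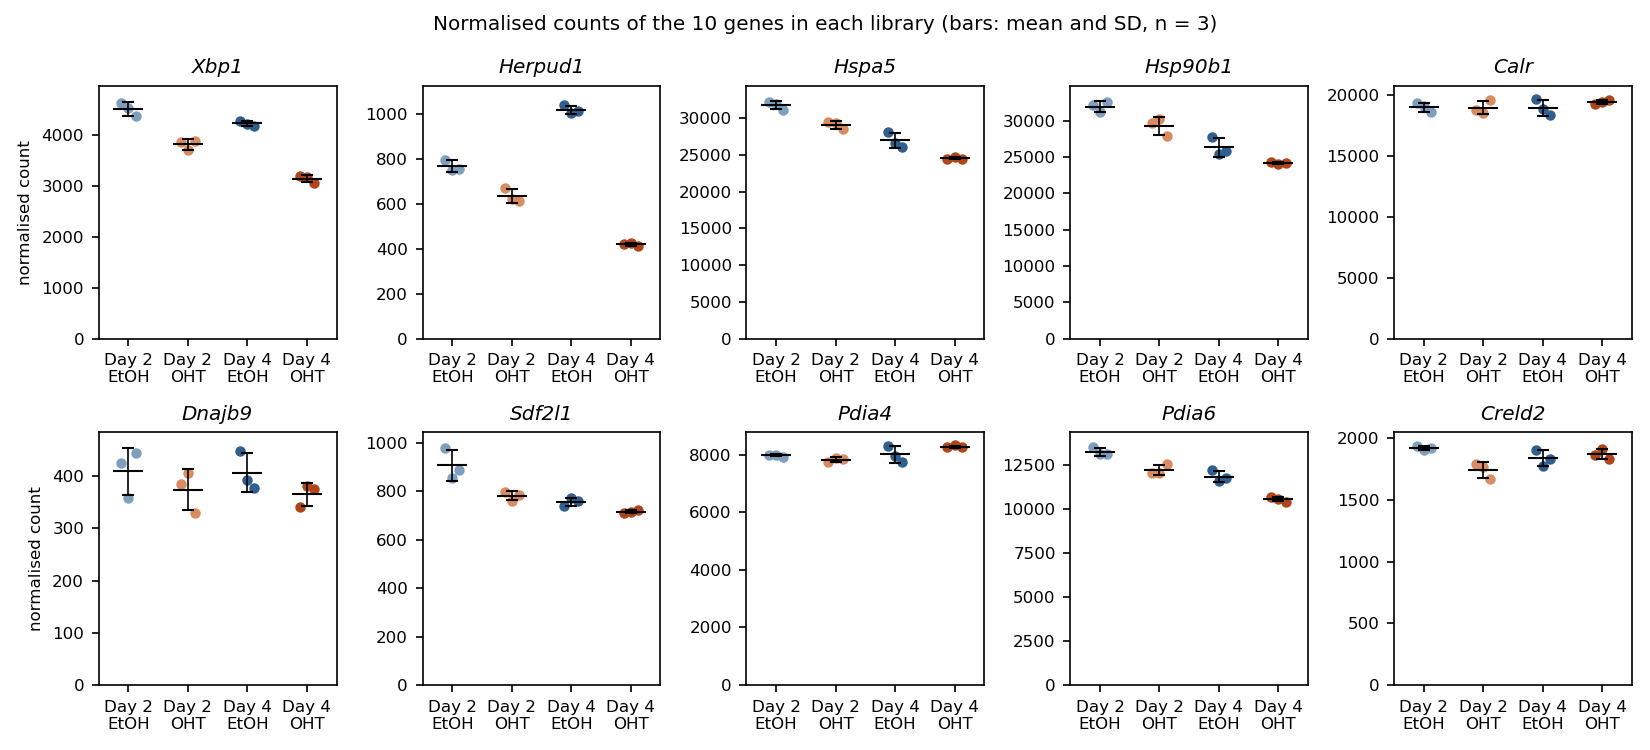
Normalised counts (vertical axes, from 0) of the 10 genes in each library of the 4 groups, with the mean and SD of each group (n = 3). *Herpud1* rises from Day 2 to Day 4 in EtOH and falls in OHT, *Hspa5*, *Hsp90b1* and *Pdia6* step down over the groups, and *Calr* and *Pdia4* stay nearly level.

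Of the main chaperones, *Hspa5* and *Hsp90b1* were called on both days and *Calr* on neither. *Hspa5* encodes BiP, the Hsp70 of the ER that also holds the sensors inactive. It lies on chromosome 2 (34771970 to 34777547, plus strand). Its normalised counts were 32251, 31943 and 31138 at Day 2 in EtOH and 29499, 29282 and 28484 in OHT, and at Day 4 28157, 26682 and 26110 in EtOH and 24459, 24754 and 24511 in OHT. The groups did not overlap on either day. The log2 fold change was -0.13 at Day 2 (SE 0.04, DESeq2 adjusted p = 0.00377) and -0.14 at Day 4 (SE 0.03, DESeq2 adjusted p = 7.58e-05). In TPM the groups overlapped at Day 2, with 311.7 to 317.6 in EtOH and 290.8 to 320.3 in OHT, and with total counts as scaling the Day 2 call was lost (-0.09, DESeq2 adjusted p = 0.0835).

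*Hsp90b1* encodes GRP94, the Hsp90 of the ER, and lies on chromosome 10 (86690209 to 86705509, minus strand). Its normalised counts were 32197, 31168 and 32594 at Day 2 in EtOH and 29747, 30271 and 27861 in OHT, and at Day 4 27773, 25438 and 25828 in EtOH and 24393, 24006 and 24195 in OHT. On both days every OHT library was below every EtOH library. The log2 fold change was -0.13 at Day 2 (SE 0.04, DESeq2 adjusted p = 0.0184) and -0.12 at Day 4 (SE 0.03, DESeq2 adjusted p = 9.78e-04). The Day 2 call held in 4 of 12 alternatives and was lost, among others, with edgeR (-0.11, edgeR adjusted p = 0.0705) and without Day2_EtOH replicate 1 (-0.13, DESeq2 adjusted p = 0.109), Day2_EtOH replicate 3 (-0.11, DESeq2 adjusted p = 0.0929) or Day2_OHT replicate 3 (-0.09, DESeq2 adjusted p = 0.0554).

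*Calr* encodes calreticulin, a calcium-binding lectin chaperone of glycoproteins, on chromosome 8 (84841850 to 84846934, minus strand). Its normalised counts were 19317, 19067 and 18577 at Day 2 in EtOH and 18738, 18515 and 19542 in OHT, and at Day 4 19672, 18819 and 18357 in EtOH and 19258, 19395 and 19554 in OHT. The groups overlapped on both days. The 95% interval of the log2 fold change was -0.078 to 0.070 at Day 2 and -0.029 to 0.093 at Day 4. At Day 2 its TPM were 239.7 to 251.4 in EtOH and 258.5 to 261.1 in OHT, which did not overlap, and the sign of its Day 2 value changed with the scaling. *Calr* shares the ERSE with *Hspa5*, *Hsp90b1* and *Pdia6* but not their calls, and differences between genes were not tested.

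Of the disulfide isomerases, *Pdia6* was called on both days and *Pdia4* on neither. *Pdia6* (chromosome 12, 17266545 to 17284770, plus strand), whose product also acts on the sensors IRE1 and PERK, had normalised counts of 13536, 13148 and 13160 at Day 2 in EtOH and of 12064, 12070 and 12566 in OHT. At Day 4 they were 12219, 11588 and 11800 in EtOH and 10709, 10584 and 10447 in OHT. The groups did not overlap on either day. The log2 fold change was -0.12 at Day 2 (SE 0.04, DESeq2 adjusted p = 0.0152) and -0.17 at Day 4 (SE 0.03, DESeq2 adjusted p = 1.13e-06). The Day 2 call held in 7 of 12 alternatives, and was lost without Day2_EtOH replicate 1 (DESeq2 adjusted p = 0.102), Day2_OHT replicate 1 (DESeq2 adjusted p = 0.0802) or Day2_OHT replicate 2 (DESeq2 adjusted p = 0.0862).

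*Pdia4* (chromosome 6, 47796141 to 47813430, minus strand) was not called on either day. Its normalised counts were 7937 to 8001 in EtOH and 7751 to 7893 in OHT at Day 2, and 7753 to 8307 and 8264 to 8325 at Day 4. The OHT libraries were the lower ones at Day 2, while at Day 4 they lay within the range of EtOH or just above its highest library. The 95% interval of the log2 fold change was -0.101 to 0.049 at Day 2 and -0.021 to 0.114 at Day 4.

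*Sdf2l1*, which encodes an ER lumen protein that works with Hsp40 co-chaperones of BiP (chromosome 16, 17130138 to 17132383, minus strand), had normalised counts of 980, 854.4 and 887.9 at Day 2 in EtOH and of 797.1, 761.2 and 785.3 in OHT. At Day 4 they were 739, 771.7 and 761.7 in EtOH and 711.7, 715.6 and 721.7 in OHT. The groups did not overlap on either day. The log2 fold change was -0.22 at Day 2 (SE 0.08, DESeq2 adjusted p = 0.0394) and -0.08 at Day 4 (SE 0.07, DESeq2 adjusted p = 0.433). The Day 2 call held in 3 of 12 alternatives, and without any 1 of the Day 2 libraries other than Day2_EtOH replicate 2 it was lost, with log2 fold changes from -0.16 without Day2_EtOH replicate 1 (DESeq2 adjusted p = 0.301) to -0.23.

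*Dnajb9*, which encodes the BiP co-chaperone ERdj4 and is a classical target of spliced XBP1 (chromosome 12, 44205559 to 44210326, minus strand), had normalised counts of 358.3 to 445 in EtOH and 330 to 406.4 in OHT at Day 2, and 378.3 to 449 and 340.6 to 380.6 at Day 4. The groups overlapped on both days. The log2 fold changes of -0.13 and -0.15 were not called, with 95% intervals of -0.357 to 0.106 and -0.367 to 0.058, which also hold the Day 2 value of *Xbp1*.

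*Creld2* (chromosome 15, 88819646 to 88826683, plus strand) had normalised counts of 1933, 1903 and 1922 at Day 2 in EtOH and of 1787, 1766 and 1666 in OHT. At Day 4 they were 1902, 1777 and 1833 in EtOH and 1866, 1910 and 1829 in OHT. The groups were apart at Day 2 and overlapped at Day 4. The Day 2 log2 fold change of -0.14 missed the threshold with DESeq2 (SE 0.06, adjusted p = 0.0715) and passed it with edgeR (-0.13, adjusted p = 0.0466), and the Day 4 value was 0.02 (SE 0.05, DESeq2 adjusted p = 0.804). The interaction was 0.17 (SE 0.07, DESeq2 adjusted p = 0.0489) and kept its call in 4 of 17 alternatives. It was lost without any 1 of 11 libraries, the exception being Day4_EtOH replicate 1. The adjusted p then ranged from 0.0525 to 0.168.

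Counted without a test, the normalised counts of the labels did not overlap for 8 of the 10 genes at Day 2, all lower in OHT, against 27.4% of all genes tested. At Day 4 they did not overlap for 6 of the 10 genes, all lower in OHT, against 29.9% lower and 33.1% higher among all genes. Of the interactions, 3 of 10 were called, against 32.5% of 11612 genes, and the share of positive values among all called interactions moved from 58.1% to 44.3% with total counts as scaling.

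The difference between the days within each label gives the setting for these changes. These comparisons share libraries with those above and are not independent of them. Between Day 2 and Day 4 in EtOH, 4 of the 10 genes fell and *Herpud1* rose, against 41.1% of 11570 genes called in either direction. *Hsp90b1* fell by 17.8%, *Sdf2l1* by 16.7%, *Hspa5* by 15.3% and *Pdia6* by 10.8%, which for *Hspa5* and *Hsp90b1* was more than the differences of 9.06% and 8.29% between the labels at Day 4. *Herpud1* rose by 32.3% (log2 fold change 0.40, SE 0.07, DESeq2 adjusted p = 2.76e-07). In OHT, 5 of the 10 fell and *Pdia4* rose, against 54% of 11633 genes. *Herpud1* fell by 33.9% (log2 fold change -0.60, SE 0.09, DESeq2 adjusted p = 6.02e-10), *Xbp1* by 17.5%, *Hsp90b1* by 17.2%, *Hspa5* by 15.4% and *Pdia6* by 13.3%. *Pdia4* rose by 6% (DESeq2 adjusted p = 0.0386), a call that was lost when any library labelled OHT other than Day2_OHT replicate 3 was left out. In EtOH the value of *Xbp1* was -0.10 (SE 0.04, adjusted p = 0.0619 in DESeq2). *Hspa5* and *Hsp90b1* thus stepped down by day and by label, whereas *Herpud1* went in opposite directions by day in the 2 labels.

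On the TPM scale, which allows levels of different genes to be compared, *Hspa5* was the most abundant of the set at Day 2 in EtOH with 314.5 ± 2.98 TPM (SD, n = 3). It was followed by *Hsp90b1* (260.2 ± 9.77), *Calr* (244 ± 6.48), *Pdia6* (147.1 ± 2.14), *Pdia4* (75.12 ± 1.09), *Xbp1* (52.18 ± 0.596), *Creld2* (33.39 ± 0.598), *Sdf2l1* (20.05 ± 1.23), *Herpud1* (10.11 ± 0.401) and *Dnajb9* (3.77 ± 0.392). No neighbours in this order overlapped. In the other groups the last 7 kept this order, while *Calr* stood above *Hsp90b1* in each, overlapping it at Day 2 in OHT. *Calr* overlapped *Hspa5* at Day 4 in EtOH (262.2 ± 13.3 and 289.8 ± 15.6) and stood above it at Day 4 in OHT (264.2 ± 4.45 and 257.5 ± 1.76). The summed level of the 10 genes was 1160 ± 18.94 TPM at Day 2 in EtOH, 1155 ± 42.7 in OHT, 1135 ± 51.5 at Day 4 in EtOH and 1043 ± 8.26 in OHT. The sum is carried by the abundant chaperones, and its OHT libraries at Day 4 (1035 to 1051 TPM) lay below those of EtOH (1087 to 1189 TPM).

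The other genes of the response were read from lists written from general knowledge, and each is described by its counts beside the share of all genes given above. Of 10 tested genes for sensors and their transcription factors, 0 were called at Day 4 with DESeq2, 1 was lower at an unadjusted p below 0.05, and edgeR called 2 lower. The log2 fold changes were 0.00 (SE 0.10) for *Ern1*, which encodes IRE1, -0.06 (SE 0.06) for *Eif2ak3*, which encodes PERK, and -0.09 (SE 0.04) for *Atf6*. The median of the list was -0.042. At Day 2, 1 of the 10 was lower, *Nfyb* (-0.14), a subunit of the ERSE-binding factor NF-Y, named after its values were seen.

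Of 22 other folding genes of the ER, 5 were higher and 4 lower at Day 4, with a median of -0.034, and 2 were lower at Day 2, *Manf* (-0.15) and *Canx* (-0.10), with 0 higher, also by edgeR and at an unadjusted p below 0.05. *P4hb*, which encodes the protein disulfide isomerase PDI, fell by 0.30 on the log2 scale at Day 4 (SE 0.03, DESeq2 adjusted p = 2.72e-25), *Pdia3* by 0.15 and *Manf*, a secreted factor induced by ER stress, by 0.15. *Sdf2*, the paralog of *Sdf2l1*, rose by 0.20 and *Erp44*, which retrieves clients from the Golgi, by 0.19. *Hyou1*, an Hsp110 that works with BiP (-0.03), *Dnajc3*, a BiP co-chaperone and PERK inhibitor (-0.12), and calnexin, *Canx* (0.05), were not called at Day 4. The ERSE was also in the windows of *Canx* and *Dnajc3*.

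Of 22 tested genes of ER-associated degradation, the pathway *Herpud1* belongs to, 4 were higher and 3 lower at Day 4, with a median of 0.031. At Day 2, 0 of 23 were higher (0 also by edgeR and at an unadjusted p below 0.05) and 3 lower, with a median of -0.060. *Syvn1*, which encodes the ubiquitin ligase HRD1 that HERPUD1 binds, fell by 0.53 at Day 2 (SE 0.14, DESeq2 adjusted p = 0.0019) and by 0.83 at Day 4 (SE 0.14, DESeq2 adjusted p = 1.8e-08) on the log2 scale. *Syvn1* is on the study's list of PRDM10-bound genes, and its window held an ERSE. Of the other lists, *Ppib* of the folding list and *Hsf1* of the cytosolic heat shock list are also on it. Their mean normalised counts at Day 4 were 5812 in EtOH and 5499 in OHT for *Ppib*, and 815.3 and 872.5 for *Hsf1*. *Sel1l*, the HRD1 partner, fell by 0.15 at Day 4, and *Nploc4*, a cofactor of the segregase p97, by 0.22. *Os9*, which encodes a lectin of the HRD1 complex, rose by 0.40. Among the tested genes of this list and of the folding list, 0 were called over 2-fold at Day 4, where 172 of all 11552 genes tested were, too few to set these lists apart.

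**Figure D4:**
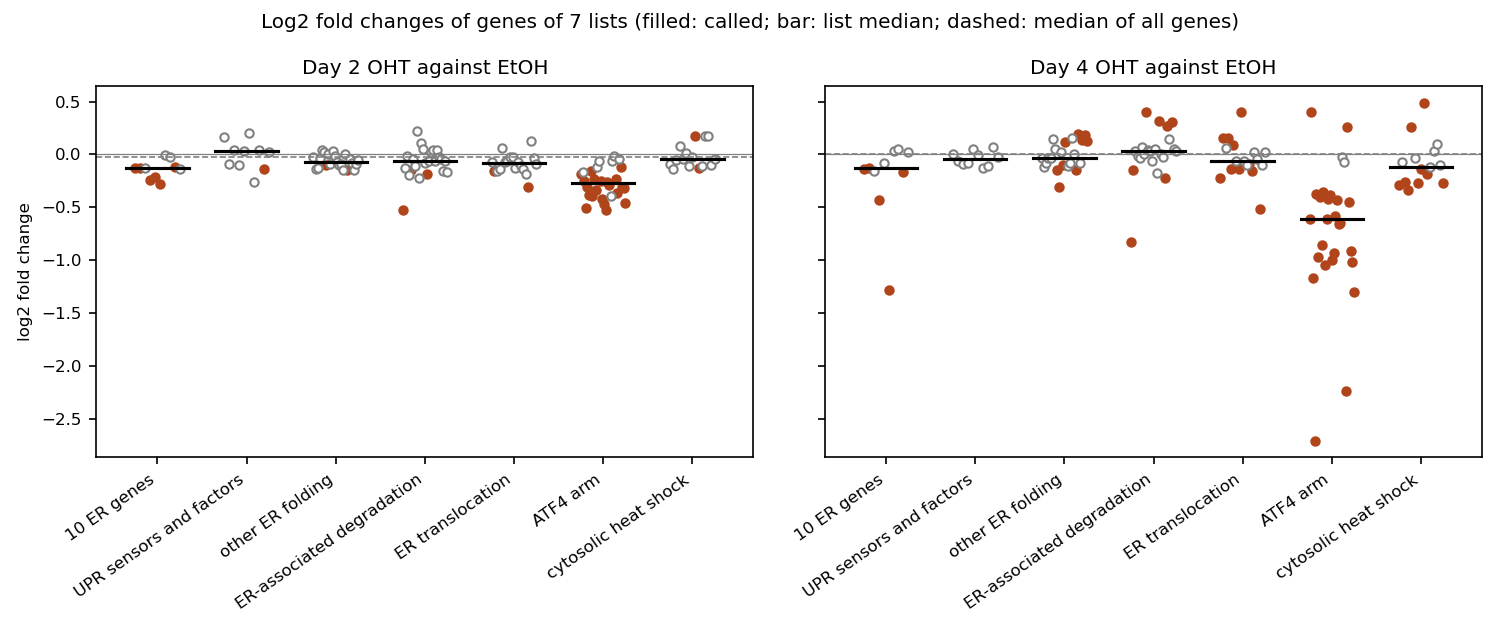
Log2 fold changes (vertical axis) at Day 2 and Day 4 of the 10 genes and of 6 lists, with called genes filled, the list median as a bar and the median of all genes tested as a dashed line. The ATF4 arm has its median at -0.274 and -0.611, and the 4 ER lists have theirs between -0.066 and 0.031 at Day 4.

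Genes of the ATF4 arm, the other side of the response, were mostly lower. Of 30 listed genes, 21 of 28 tested were lower at Day 2 and 0 higher, with a median log2 fold change of -0.274 (0 higher also by edgeR and at an unadjusted p below 0.05). At Day 4, 23 of 27 tested were lower and 2 higher, with a median of -0.611, and 6 were called over 2-fold, against 172 of all 11552 genes tested. *Atf4* itself was lower in OHT by 0.61 at Day 4 on the log2 scale (SE 0.03, DESeq2 adjusted p = 1.63e-79), *Chac1*, which encodes an enzyme of glutathione breakdown, by 2.71 (SE 0.16, DESeq2 adjusted p = 3.36e-65) and *Nupr1*, a stress-induced chromatin protein gene, by 2.24 (SE 0.15, DESeq2 adjusted p = 3.04e-46). The mean normalised count of *Atf4* was 7162 in EtOH and 6298 in OHT at Day 2, and 10365 and 6795 at Day 4. Its level thus rose by day in EtOH and did not fall by day in OHT. The 2 genes higher in OHT at Day 4 were *Ddit3*, which encodes the factor CHOP (0.40, SE 0.15, DESeq2 adjusted p = 0.0238), and *Ppp1r15a*, which encodes the eIF2 alpha phosphatase subunit GADD34 (0.26, SE 0.07, DESeq2 adjusted p = 0.00107). The mean normalised count of *Ddit3* was 275.4 in EtOH and 245.1 in OHT at Day 2, and 149.1 and 197.7 at Day 4. Its Day 4 mean in OHT was thus below both Day 2 means. The symbol *Ddit3* has 2 identifiers, of which the one with more counts was used. The fall of *Herpud1* at Day 4 (-1.29) lay within the range of this list, and that of the other 9 genes (-0.43 to 0.05) above its median. The summed level of the list was 1275 ± 19.06 TPM at Day 2 in EtOH and 1144 ± 32.26 in OHT, and 1431 ± 22.7 at Day 4 in EtOH and 948.2 ± 8.497 in OHT. Between Day 2 and Day 4 in EtOH, 14 of 28 tested genes of the list rose and 7 fell, with a median of 0.288. In OHT, 6 of 28 rose and 14 fell, with a median of -0.251. Among all genes tested, 41.1% and 54% were called by day in EtOH and OHT.

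The genes most like the set were found from the mean over the 10 genes of log2(normalised count + 1), each gene centred and scaled, across the 12 libraries. The highest Pearson correlations with this mean belonged to *Mrps33* (0.966), *Tcp1* (0.964), *Med30* (0.955), *Avpi1* (0.954) and *Tefm* (0.952). The 12 points share the 4 groups, so that these values describe the pattern of the groups. Among the 10 themselves, *Pdia6* (0.853), *Hspa5* (0.844) and *Xbp1* (0.837) followed the mean most closely, and *Calr* (-0.002) and *Pdia4* (-0.118) did not follow it. Each of the 10 is part of that mean, which raises its value, so that these values cannot be set beside those of other genes.

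Within the set, *Hspa5* correlated with *Hsp90b1* at 0.978 and with *Pdia6* at 0.958 across the 12 libraries, and *Calr* with *Pdia4* at 0.717, while *Herpud1* correlated with *Xbp1* at 0.879 and with *Hspa5* at 0.494. Taken singly, which was chosen after the values were seen, *Herpud1* was most like *Chac1* (0.991) and *Eif4ebp1* (0.990), both genes of the ATF4 arm list. *Notum* (0.987), *Pcolce* (0.986) and *Cabp1* (0.985) came next and were on none of the lists. *Xbp1* was most like *Psph* (0.989), a serine synthesis gene of the ATF4 arm list, and *mt-Co1* (0.989), which was on no list. The next genes, *Snrpa1*, *Coro1c* and *Bzw2*, were on no list either. *Chac1* had normalised counts of 190.7 to 262 at Day 2 in EtOH and 128.6 to 186.6 in OHT, and of 390.5 to 397.4 at Day 4 in EtOH and 57.66 to 63.17 in OHT. Like *Herpud1*, it was highest at Day 4 in EtOH and lowest at Day 4 in OHT, and its window is among the 9 of the ATF4 arm with CARE. By group means, *Trib3*, *Slc7a11*, *Atf3*, *Nupr1* and *Pck2* of those 9 had the same pattern. *Asns*, *Pycr1* and *Vldlr* of those 9 were highest at Day 2 in EtOH. The group means of *Slc7a11* (11.26 to 77.31) and *Atf3* (35.8 to 82.48) lay below the minimum of 100. By group means, *Eif4ebp1*, *Mthfd2*, *Aldh18a1*, *Slc7a5*, *Slc3a2*, *Psat1*, *Shmt2* and *Atf5* also had the pattern of *Chac1*. These are not among the genes with a CARE match, and only 26 of the 30 listed genes had a window. Other listed genes without a match, such as *Gpt2* and *Sesn2*, did not have the pattern. A link between CARE and the pattern was not tested. The plot of relative counts shows *Herpud1*, *Xbp1*, *Chac1* and *Psph* beside *Hspa5* and *Calr*.

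**Figure D5:**
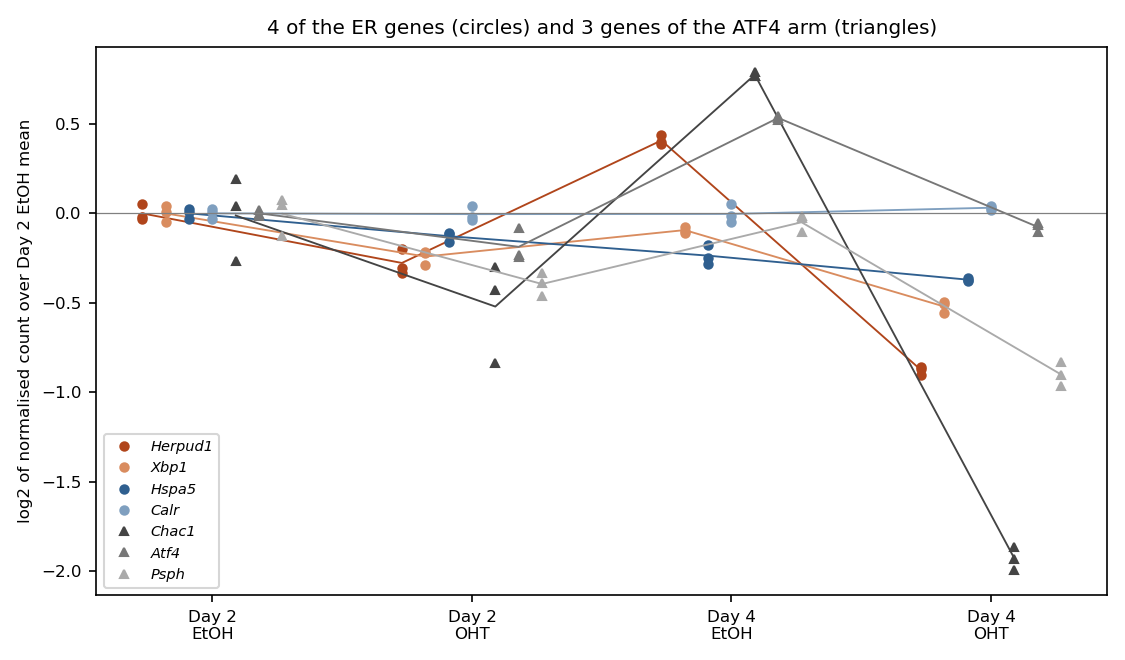
Log2 of the normalised count of each library over the Day 2 EtOH mean (vertical axis) in the 4 groups, for *Herpud1*, *Xbp1*, *Hspa5* and *Calr* (circles) and *Chac1*, *Atf4* and *Psph* (triangles), with lines through group means. *Herpud1* and *Chac1* are highest at Day 4 in EtOH and lowest at Day 4 in OHT, *Hspa5* steps down, and *Calr* stays near 0.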

How the data were processed

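Each of the 12 libraries was assigned to a group by its title. For the deposited expected counts (RSEM's estimate of read pairs per gene, which need not be whole) and the deposited TPM values, the authors sequenced stranded total RNA libraries as paired reads, mapped them to GRCm38.p6 with STAR (version 2.6.0c) and quantified GENCODE genes with RSEM, one library at a time. The strand setting of RSEM is not given in the sources used here. RSEM's posterior SD of the 10 genes' counts was at most 0.87, so that hardly any reads were shared with other genes. The authors' tables of log2 fold changes and p-values hold their own DESeq2 comparisons (version 1.22.2), and of these tables the symbols alone were used.

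Expected counts were rounded and tested over the whole table with DESeq2 (version 1.42.0, R 4.3.3), Wald test, median-of-ratios size factors and Benjamini-Hochberg adjustment, with independent filtering at 0.05. Each day and each label was fitted on its own 6 libraries and the interaction on all 12. A call required an adjusted p below 0.05 and more than 100 normalised counts on average, and fold changes were not shrunken. Printed counts were normalised over all 12 libraries. The alternatives were edgeR (version 4.0.16) quasi-likelihood tests, TMM factors, total counts, effective lengths as offsets, the replicate number as a block, all 12 libraries in 1 fit, no minimum mean and each library left out. The scripts were tested on simulated data. Averaged over genes, replicates differed by more than counting error, with a chi-square per gene of 3.41 to 11.2. This need not hold for single genes. The SD of *Herpud1* at Day 4 in OHT was 6.72, at a mean normalised count of 418.5. Amplified read pairs are not independent molecules.

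The 10 genes, the lists and the tests were chosen with earlier results of these data known, so that lists are described by counts and medians with no test. Named were the 10 genes, *Prdm10*, a fixed set of sensor, folding, degradation and ATF4 genes, and in each list the 2 most positive and 2 most negative called Day 4 values. A gene that this rule names is not reported here. All other names were chosen after their values were seen. Gene positions came from GENCODE vM21 on GRCm38 and promoter windows from RefSeq (GRCm38.p6), which held all 10 genes.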

Additional observations from a re-analysis of the deposited data

Results flagged for a closer look

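The change under OHT differed between Day 2 and Day 4 for 3 of the 10 genes, by the interaction of treatment and day over 12 libraries with DESeq2, where 32.5% of the 11612 genes tested were called. *Herpud1* fell further at Day 4, with an interaction of -1.0065 on the log2 scale (adjusted p = 9.43e-23), and so did *Xbp1*, with -0.1851 (adjusted p = 0.00304). Both calls held in all 17 alternatives run. *Creld2* had an interaction of 0.1651 (adjusted p = 0.0489), called in 4 of 17 alternatives. All 3 OHT libraries were below all 3 EtOH libraries for *Herpud1* and *Xbp1* on both days, and for *Creld2* at Day 2.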

How the results depend on the processing

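The 5 genes called lower at Day 4 stayed 5 in every alternative run, and 0 of the 10 were higher on either day in any. The 6 called lower at Day 2 became 2 with total counts and 2 with the replicate block, and 2 to 6 when a library was left out. Over all genes the Day 2 calls (1075 higher, 1258 lower) became 1389 and 638 with total counts, 655 and 647 with the replicate block, 612 and 579 without Day2_EtOH replicate 1, and 739 and 750 without Day2_EtOH replicate 2. With the replicate block, *Herpud1* was -0.28 at Day 2 (DESeq2 adjusted p = 0.0901). The labels do not say whether the replicate numbers pair the libraries. The deviations of same-numbered libraries correlated at -0.035 to 0.084 at Day 2 and -0.231 to 0.121 at Day 4. Between the days they reached 0.285 in EtOH (replicate 3) and -0.385 in OHT (replicate 1). With 3 libraries per group these values cannot decide whether the libraries were paired. The 1 higher interaction (*Creld2*) became 0 with total counts, 0 with the replicate block and 0 to 1 without a library. The 1 gene higher by day in OHT (*Pdia4*) became 2 with edgeR, 0 with total counts, 0 with the replicate block and 0 to 1 without a library. Medians of the 10 genes were -0.089 with total counts and -0.150 to -0.111 without a library at Day 2, and -0.149 to -0.092 without a library at Day 4. Those of the ATF4 arm were -0.236 with total counts at Day 2 and -0.633 to -0.602 without a library at Day 4.

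Counting each gene in each comparison and alternative, the sign changed for 25 values, none of them called. At Day 2, *Calr* was 0.0102 with edgeR, 0.0063 with TMM factors, 0.0338 with total counts, 0.0111 with effective lengths and -0.0266 to 0.0137 without a library, and *Pdia4* 0.0116 with total counts. At Day 4, *Creld2* was -0.0022 to 0.0482 without a library. Interactions were 0.0006 with edgeR and -0.0313 to 0.0240 without a library for *Hspa5*, -0.0401 with total counts and -0.0306 to 0.0432 without a library for *Hsp90b1*, 0.0123 with effective lengths and -0.1072 to 0.0610 without a library for *Dnajb9*, and -0.0055 with total counts for *Calr*. Of the other values of single genes, 39 lost and 3 gained a call, and 343 kept their direction and side of the threshold. The causes were not tested.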

Other observations

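The chaperones of the cytosol were read as a list of 15 heat shock genes. At Day 4, 2 were higher and 7 lower in the libraries labelled OHT, with a median log2 fold change of -0.116, where 23.6% of all genes tested were higher and 21.7% lower. At Day 2, 1 was higher and 1 lower, with a median of -0.045, where 9.23% of all genes were higher and 10.8% lower. *Hspb1*, a small heat shock protein gene, rose on both days (0.17 and 0.49), and *Hsp90aa1*, an Hsp90 gene, rose by 0.26 at Day 4. *Hsph1*, an Hsp110 gene, fell by 0.34 and *Hspa8*, the constitutive Hsp70 gene, by 0.29 at Day 4 on the log2 scale.

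Of 18 genes for translocation into the ER, 4 were higher and 6 lower at Day 4, with a median of -0.066, against the same shares of all genes, and 0 were higher (DESeq2, with 1 by edgeR and 1 at an unadjusted p below 0.05) and 2 lower at Day 2, with a median of -0.082. *Srpr*, which encodes the receptor of the signal recognition particle, fell by 0.51 and *Sec61a1*, the channel subunit gene, by 0.22 at Day 4 on the log2 scale. *Ssr4*, a subunit gene of the translocon-associated complex, rose by 0.40 and *Sec62* by 0.16.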
